A study of Mus musculus with 12 samples.

Results

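Mitochondrial ribosomal proteins are encoded in the nucleus, made on cytosolic ribosomes and imported into mitochondria, where they assemble with rRNA of the mitochondrial genome into the mitochondrial ribosome. Their genes were taken here as every protein-coding mouse symbol that begins with Mrpl or Mrps followed by a digit, pseudogenes left out. The rule found 78 genes among the 27179 gene IDs of each count table, 49 with an Mrpl symbol, given to large subunit proteins, and 29 with an Mrps symbol, given to small subunit proteins. The 2 lists go by symbol alone, and whether each member is a part of the mitochondrial ribosome was not checked. At least Mrps18a and Mrps30 encode large subunit proteins in spite of their symbols. Of the 78 genes, 77 had at least 1 count, and Mrpl36 had 0 counts in all 12 libraries.

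RNA was measured by RNA sequencing in sucrose gradient pools from livers of 6 male C57BL/6 mice. The groups were 1 mouse with the S209A change on both eIF4E alleles, fed chow, 2 wild-type mice fed a ketogenic diet, and 3 wild-type mice fed chow. The protocol gives 24 h on the diet, the time label of every library gives 0 h, and the design text speaks of fasted livers where the labels give the ketogenic diet. The labels state no age and no tissue-restricted allele. Each liver gave a heavy polysome library and a light polysome library, named as the labels name them, and which of the pooled fraction ranges (2 to 7 and 8 to 13) is the heavy one is not stated. mRNA that carries many ribosomes sediments deep in such a gradient. The heavy over light ratio of an mRNA is therefore read as a measure of how many ribosomes its copies carry. It does not give the share of copies being translated, since each library is of a polysome pool. The libraries are called S209A, keto 1 and 2, and chow 1, 2 and 3. The sample titles use the word chow for chow 1 and 2 but the word fed for chow 3 and S209A.

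The mitochondrial ribosome makes the few proteins that mitochondrial DNA encodes, all of them subunits of the respiratory chain and ATP synthase. Hepatocytes are rich in mitochondria and use them for fatty acid oxidation and for ketone body synthesis. eIF4E binds the mRNA cap, and the S209A change replaces the serine that the MNK kinases phosphorylate. Known activators of mitochondrial ribosomal protein promoters are NRF1 and the ETS factor GABP, and YY1 is a further factor of such promoters.

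The promoters are shown because these factors are known to act there on genes of the family. RefSeq promoter entries (GRCm38.p6, 250 bases before to 50 bases after the start site of the entry) matched 69 of the 78 genes with 75 entries. On either strand, the NRF1 core CGCATGCG was in 9.33% of these entries and in 2.60% of the promoters of all protein-coding genes in the files. The ETS/GABP core CCGGAAG was in 34.7%, against 11.8%, and the YY1 core ATGGCGG in 17.3%, against 5.35%. At least 1 of the motifs stood in 49.3% of the entries of mitochondrial ribosomal protein genes, against 17.9% of protein-coding promoters. Cytosolic ribosomal protein promoters held at least 1 of them in 51.9% of entries, and those of nuclear respiratory chain subunits in 42.5%. The 5 sequences below are the 150 bases before the start site of the promoter entry, read 5′ to 3′ on the gene's strand, with motif matches in capitals. They belong to genes whose keto and chow values are set out further on. For Mrpl22 and Mrps31 this site lies inside the annotated span of the gene, which begins at 58170043 and 22410449.

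Mrpl32, chr13:14613038-14613187, minus strand: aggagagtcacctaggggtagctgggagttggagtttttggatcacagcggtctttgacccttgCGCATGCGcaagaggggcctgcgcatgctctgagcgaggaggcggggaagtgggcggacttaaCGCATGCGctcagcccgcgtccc
Mrpl22, chr11:58171514-58171663, plus strand: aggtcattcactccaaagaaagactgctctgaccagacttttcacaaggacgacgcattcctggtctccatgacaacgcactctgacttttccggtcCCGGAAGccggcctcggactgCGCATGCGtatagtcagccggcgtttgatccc
Mrps22, chr9:98601680-98601829, minus strand: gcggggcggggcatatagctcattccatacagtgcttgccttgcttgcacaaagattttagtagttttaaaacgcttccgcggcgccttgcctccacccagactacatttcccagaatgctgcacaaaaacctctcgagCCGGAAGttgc
Mrpl35, chr6:71823785-71823934, minus strand: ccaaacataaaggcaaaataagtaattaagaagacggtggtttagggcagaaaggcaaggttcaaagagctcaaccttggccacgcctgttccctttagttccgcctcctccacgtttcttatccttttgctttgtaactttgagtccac
Mrps31, chr8:22411190-22411339, plus strand: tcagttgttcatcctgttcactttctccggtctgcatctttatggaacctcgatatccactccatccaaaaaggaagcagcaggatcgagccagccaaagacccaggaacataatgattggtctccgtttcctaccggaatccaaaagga

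Mrpl32 held the NRF1 core at 86 and at 23 bases before the start site of its entry. Mrpl22 held it at 32 bases and the ETS/GABP core at 53 bases before that of its own entry. Mrps22 held the ETS/GABP core at 11 bases before the start site of its entry. No match stood in the windows of Mrpl35 and Mrps31. These windows are shorter than the entries over which the shares above were counted, so matches outside them are not shown. A match is a string of letters and not a shown binding site.

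These mRNAs were counted few times, which limits every comparison. Library totals ran from 3341046 to 13263355 counts, of which nuclear protein-coding genes held 356666 to 1777315 and the members together 807 (keto 2 light) to 3878 (chow 3 heavy). Mitochondrial rRNA held 12.1% to 74.2% of a library's counts, and an unnamed gene ID 15.9% to 59.1%. Library scaling factors (TMM) were 0.324 to 0.566 in keto libraries and 0.645 to 1.33 in chow 1 and 2. In S209A and chow 3 they were 2.13 to 3.12. The median member had 245 counts over the 12 libraries, 51 members had counts in every library, and 13 had at least 10 counts in every library. After the filter on low counts 74 members were tested, through whichever group held the counts. Mrpl36, Mrps17, Mrps18b and Mrps36 were left out. The annotated spans of 25 members overlap another gene, in 20 cases a protein-coding one, and the strand setting of the counting is not given in the sources used here. Per the file headers, the counts of S209A and chow 3 came from HISAT2 alignments and those of chow 1 and chow 2 from Bowtie2 alignments, and for both keto livers no aligner is named there. Diet and upstream processing therefore cannot be told apart beyond what chow 3 shows. Hepatocyte markers summed to 41065 to 71111 CPM relative to protein-coding counts in the 12 libraries, and erythroid markers to 25.9 to 743 CPM, highest in keto 2 light.

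**Figure D1:**
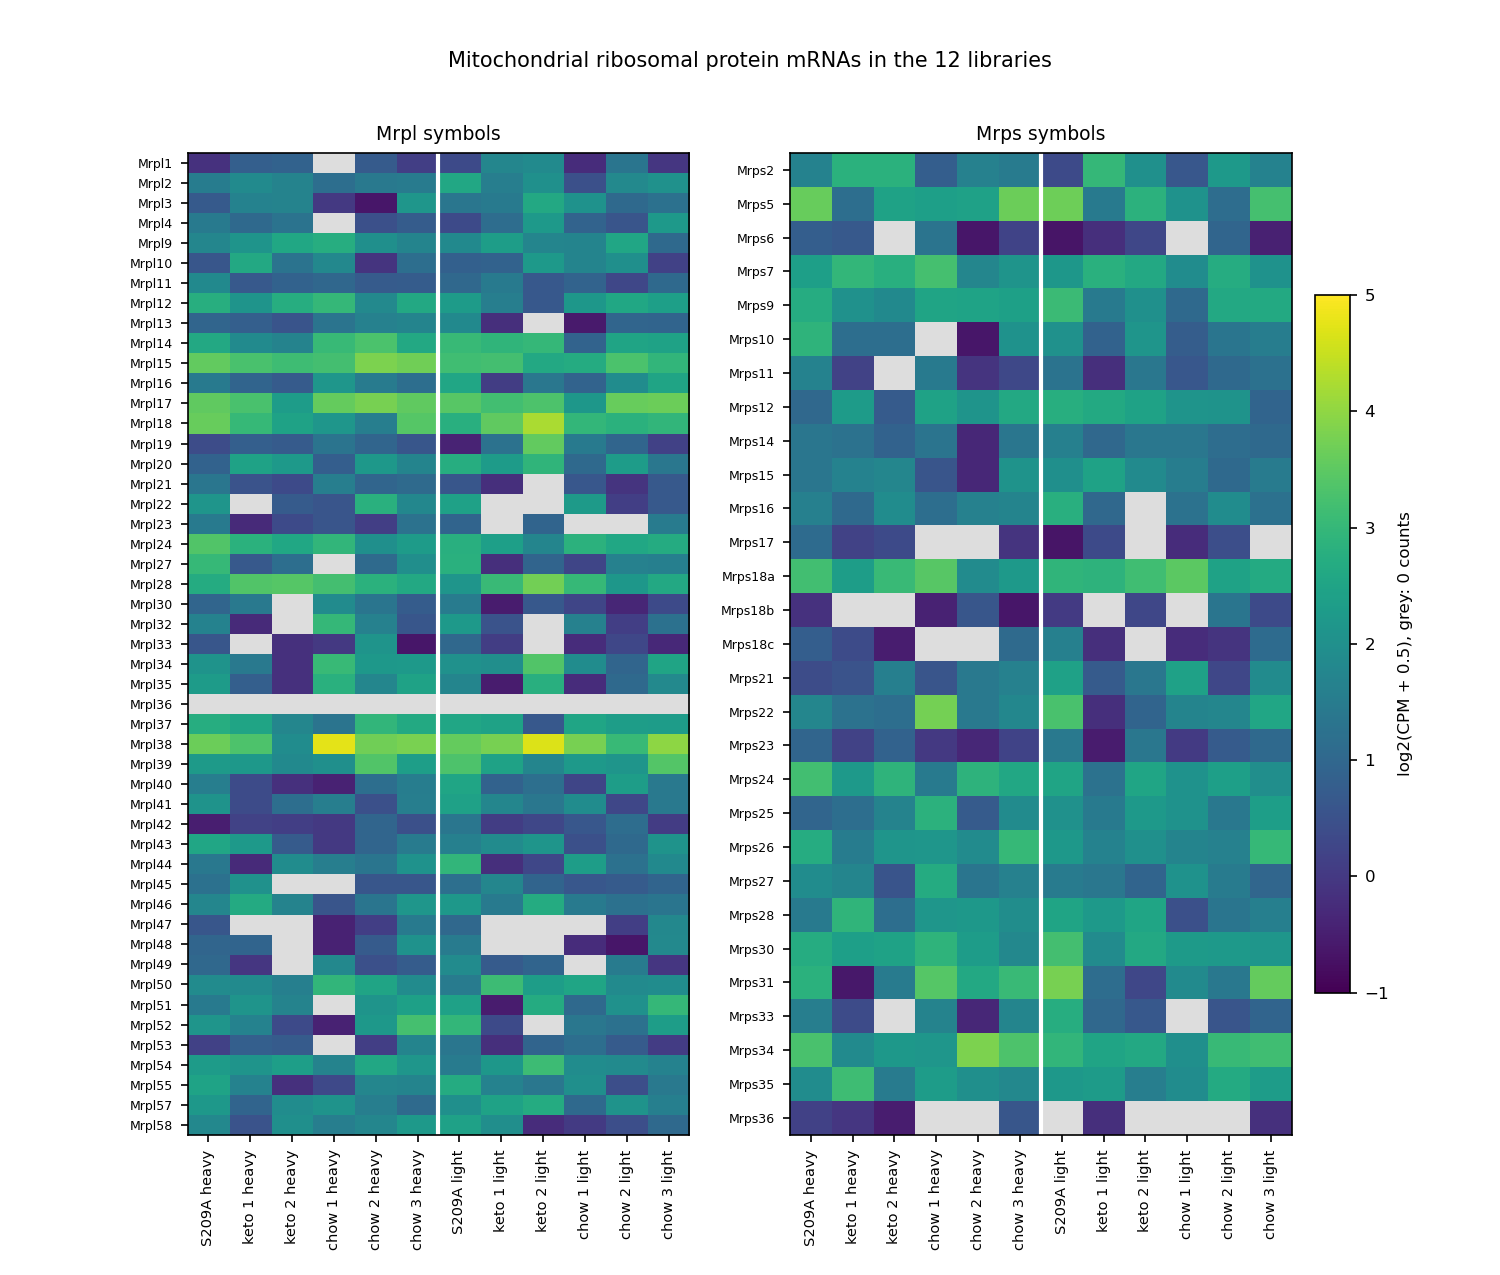
Normalised level of each of the 78 mitochondrial ribosomal protein mRNAs (rows, by number within each symbol prefix) in the 12 libraries (columns, heavy pools left of light pools), as log2(CPM + 0.5), with grey for 0 counts. Colours compare libraries within a row, since levels are not per length; Mrpl36 is grey throughout and Mrpl47 is grey in all 4 keto libraries.

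Together the members held 0.147% to 0.226% of the nuclear protein-coding counts of a library. As a share of all counts, the highest library stood 8.97-fold above the lowest. In the heavy pools the share was 0.211% in S209A, 0.189% and 0.176% in keto 1 and 2, and 0.178%, 0.147% and 0.218% in chow 1, 2 and 3. In the light pools it was 0.206% in S209A, 0.179% and 0.226% in keto 1 and 2, and 0.193%, 0.174% and 0.211% in chow 1, 2 and 3. The highest library stood 1.54-fold above the lowest. The ranges of keto and chow livers overlapped in both pools, and S209A lay within the chow range in both.
The heavy pools averaged 0.183% ± 0.00942 in keto livers and 0.181% ± 0.0359 in chow livers (SD, n = 2 and 3), and the light pools 0.203% ± 0.0331 in keto livers and 0.193% ± 0.0186 in chow livers. By this share, heavy lay above light in S209A, keto 1 and chow 3, and below light in keto 2, chow 1 and chow 2. In summed CPM, which is scaled by TMM, S209A, chow 1 and chow 2 had the opposite order. S209A had 293 in heavy and 336 in light, chow 1 had 277 and 196, and chow 2 had 244 and 216. Keto 1, keto 2 and chow 3 kept their order. Which pool was higher in S209A, chow 1 and chow 2 therefore depends on the scaling. The exact 95% binomial intervals of heavy and light did not meet in keto 2 (0.165% to 0.187% heavy, 0.211% to 0.242% light) and in chow 2 (0.140% to 0.154% heavy, 0.165% to 0.183% light). These intervals cover counting error only, and even numbers made up 79.6% to 83.9% of low gene counts in the S209A and chow 3 libraries and 57.1% to 65.2% in the others, so the counts may hold both mates of a pair and the intervals may be too narrow.

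**Figure D2:**
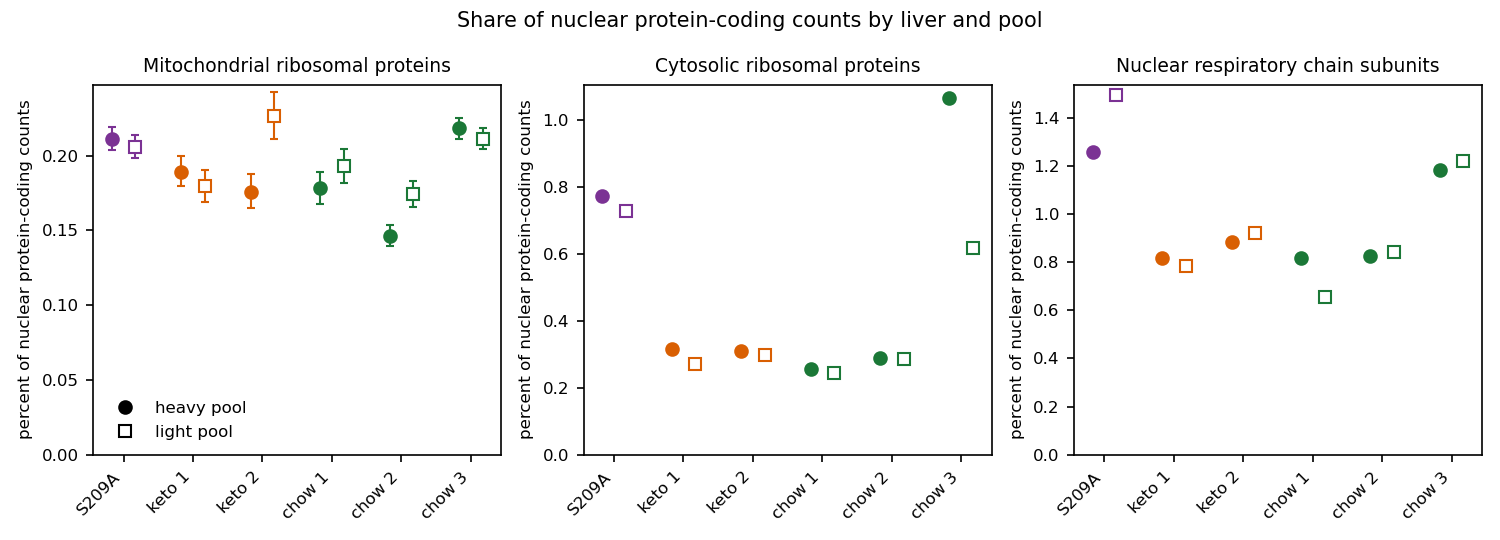
Summed share of nuclear protein-coding counts (percent, axes start at 0) of mitochondrial ribosomal protein mRNAs, cytosolic ribosomal protein mRNAs and nuclear respiratory chain subunit mRNAs in each liver, with filled circles for the heavy pool and open squares for the light pool; bars on the left panel are exact 95% binomial intervals. The mitochondrial ribosomal proteins stay between 0.147% and 0.226%, while the cytosolic ribosomal proteins run from 0.244% to 1.06%.

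The same share differed far more for cytosolic ribosomal proteins, which the S209A and chow 3 libraries held at 0.619% to 1.06% and the other 8 libraries at 0.244% to 0.316%. Nuclear respiratory chain subunits ran from 0.654% to 1.497%. For single members, the CPM of all 4 HISAT2 libraries lay above the other 8 libraries for 5 of 74 (6.76%; 3.33% of all genes tested) and below them for 1 (1.35%; 2.75% of all genes). The same held above for 53 of 81 cytosolic ribosomal protein genes (65.4%) and 27 of 75 respiratory chain genes (36.0%). The 5 members were Mrpl47, Mrpl48, Mrps5, Mrps18c and Mrps26, and the 1 below was Mrpl19, all named after their values were seen. Mrpl47, a large subunit protein near the polypeptide exit, had 10 and 12 counts in S209A heavy and light, and 31 and 38 in chow 3, against 0 to 4 in the other 8 libraries. Mrps5, a small subunit protein on the path of the mRNA into the ribosome, had 8.88 to 12.2 CPM in the HISAT2 libraries and 1.72 to 6.72 CPM in the others. Alignment and animal cannot be told apart in this split.

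The first comparison asks whether these mRNAs lie more in heavy or in light polysomes. Over the 6 livers, edgeR's quasi-likelihood test with the liver as a block called 0 of 74 members at an adjusted p of 0.05 (0.0284% of all genes tested were called), and 0 of 74 had an unadjusted p under 0.05 (3.4% of all genes). The median log2 heavy over light was -0.0021 over the members and -0.01 over all genes tested, with 37 members above 0 and 37 below. DESeq2 and limma-voom called 0 members too, here and in each comparison of pools or diets that follows. The members ran from -1.01 to 1.32, and their median standard error was 0.59. At this depth a difference of about that size could not be detected for most members.

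By liver, the median log2 heavy over light of the 74 members was -0.30 in S209A, 0.07 and -0.38 in keto 1 and 2, and 0.19, 0.01 and 0.19 in chow 1, 2 and 3. All genes tested had medians between -0.08 and 0.02 in the same livers. Heavy exceeded light for 31 members in S209A, for 41 and 24 in keto 1 and 2, and for 42, 38 and 44 in chow 1, 2 and 3. The middle 50% of members spanned -0.93 to 0.42 in S209A, -1.08 to 0.25 in keto 2, which had the fewest member counts, and -0.37 to 0.54 in chow 3, which had the most. Heavy exceeded light in all 6 livers for 2 members (2.70%; 158 of 10555 genes overall) and in no liver for 0 members (1.96% of all genes).

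**Figure D3:**
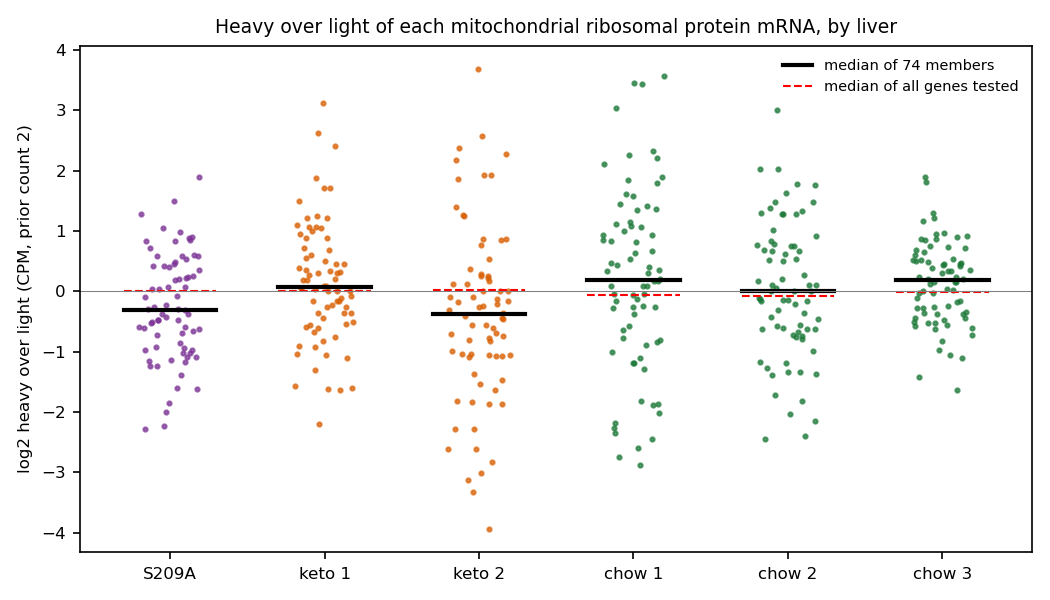
Log2 heavy over light of the 74 tested mitochondrial ribosomal protein mRNAs (points, from CPM with a prior count of 2) in each liver, with the members' median (black bar) and the median of all genes tested (dashed red). The members' medians lie between -0.38 (keto 2) and 0.19 (chow 1 and chow 3), and points scatter over several log2 units around them in each liver.

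Mrpl15, a large subunit protein, was 1 of the 2 members with heavy above light in every liver. It had 11.3 CPM in S209A heavy, 9.12 and 8.31 in keto heavy, and 8.69, 13.5 and 12.4 in chow heavy, against 8.48 in S209A light, 8.77 and 5.66 in keto light, and 5.91, 9.34 and 7.25 in chow light. The pools overlapped across livers, and within livers the log2 ratio ran from 0.06 in keto 1 to 0.75 in chow 3. Its fitted log2 difference of 0.48 ± 0.31 (SE, 6 livers) did not pass edgeR's test (adjusted p = 0.998). The adjusted p was the same, 0.998, for each member named in this comparison. The other such member, Mrpl21, was named after its values were seen, had 0 to 22 counts a library and a fitted difference of 1.32 ± 0.90.
Mrpl12, the stalk protein that recruits translation factors to the large subunit, had heavy above light in every liver but chow 2, with a fitted difference of 0.56 ± 0.43. The other members with the most positive values by the naming rule were Mrpl35 (0.83 ± 0.69), Mrps24 (0.49 ± 0.39), Mrpl28 (0.26 ± 0.33) and Mrps26 (0.22 ± 0.41). On the light side, Mrps25 had -0.48 ± 0.50 and Mrps18a -0.26 ± 0.33, each with heavy below light in 5 of the 6 livers.

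Several members were chosen for their roles rather than their values. Mrps12, at the decoding centre, had -0.30 ± 0.52, and Mrpl3, near the peptidyl transferase centre, had -0.88 ± 0.66. Mrpl58, a peptidyl-tRNA hydrolase built into the large subunit, had 0.87 ± 0.67, and Mrpl44, which carries an RNase III-like fold, had -0.16 ± 0.60. The small subunit proteins Mrps34 and Mrps35 had 0.09 ± 0.35 and -0.07 ± 0.43. Mrps30 had 0.02 ± 0.38, and Mrpl41 had -0.40 ± 0.58. None of them passed (edgeR, adjusted p = 0.998 each).

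The median log2 heavy over light was -0.03 over the 48 tested members with an Mrpl symbol and 0.05 over the 26 with an Mrps symbol. Beside them, 81 cytosolic ribosomal protein genes had a median of 0.30, with 66 above 0, and 75 respiratory chain genes had 0.06. Of the genes that serve mitochondrial translation, 5 ribosomal proteins with other symbols had a median of -0.22, 13 translation factors -0.04, 22 assembly and rRNA modification factors 0.25 and 14 transcription and RNA handling factors 0.12. In each of these lists 0 genes passed edgeR's test in either direction, and so it was in each keto and chow comparison that follows. In bulk RNA, fewer cells of a type and less RNA per cell cannot be told apart.

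The diets were compared in the heavy over light ratio. In chow livers edgeR called 0 of 74 members (0.227% of all genes), with a median of 0.11 against -0.09 over all genes, and 0 members had an unadjusted p under 0.05 (6.96% of all genes). In keto livers it called 0 of 74 (0.18% of all genes), with a median of -0.08 against 0.03 over all genes, and 2 members, both lower in heavy, had an unadjusted p under 0.05 (2.70%; 4.27% of all genes). The difference of the ratios, keto minus chow, was called for 0 of 74 members (0.189% of all genes). Its median was -0.19 over the members and 0.15 over all genes, and 3 members, all negative, had an unadjusted p under 0.05 (4.05%; 6.04% of all genes). Without keto 2 the members' median of this difference was 0.04.

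Mrpl38, a mitochondrion-specific protein of the large subunit, had the smallest p. It had 9.59 and 3.28 CPM in keto heavy and 26.3, 12.5 and 13.4 in chow heavy, and 13.2 and 25.1 CPM in keto light and 13.0, 7.76 and 15.2 in chow light. In the heavy pool both keto livers lay below all 3 chow livers, and in the light pool the groups overlapped. Mrpl38 was picked for its small p, which favours such separation. Its log2 heavy over light was -1.61 ± 0.57 in keto livers (SE; edgeR, adjusted p = 0.619) and 0.49 ± 0.42 in chow livers (edgeR, adjusted p = 0.939). The difference between diets was -2.11 ± 0.71 (edgeR, adjusted p = 0.433). Without chow 3 it was -2.42 and passed (edgeR, adjusted p = 0.0311), in a fit that called 1 of 75 members (1.33%) and 214 of 10264 genes (2.08%), while the adjusted p ran from 0.107 to 1 under the other settings. Without keto 2 it was -0.95.
S209A had 12.1 CPM of Mrpl38 in heavy and 11.6 in light.

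The other members named for this difference lay on both sides. Mrpl34, of the large subunit, had 2.20 and 0.386 CPM in keto heavy against 3.43 and 9.90 in keto light, and 7.70, 4.06 and 4.23 in chow heavy against 3.31, 1.44 and 5.14 in chow light. Heavy lay below light in both keto livers and in chow 3. Its diet difference was -3.05 ± 1.15, and -1.40 without keto 2. Mrpl14, at the interface of the subunits, had 3.14 and 2.70 CPM in keto heavy against 7.05 and 7.42 in keto light, and 7.70, 9.42 and 5.61 in chow heavy against 1.39, 5.17 and 4.99 in chow light. Heavy lay below light in both keto livers and above it in all 3 chow livers, and the difference was -2.35 ± 0.92. Mrps12 had -1.91 ± 1.10. On the other side, Mrpl51 had 1.75 ± 1.30, Mrpl52 1.97 ± 1.48, Mrpl48 4.85 ± 3.72 and Mrpl12 1.31 ± 1.04. Mrpl51 and Mrpl48 became negative without keto 1 (-0.32 and -0.83), and Mrpl48 had 0 counts in both keto light libraries, so its fitted value depends on the prior count. None of these 7 passed (edgeR, adjusted p = 0.594 for Mrpl34, 0.633 for Mrpl14, and 0.910 or more for the rest).

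Within the heavy pool, keto livers were set against chow livers. edgeR called 0 of 74 members, as it called 0% of all 10552 genes tested, of which DESeq2 called 98 and limma-voom 4. The members' median log2 keto over chow was -0.45, with 46 of 74 below 0, against -0.04 over all genes. It was -0.52 over members with an Mrpl symbol and -0.21 over those with an Mrps symbol. The members' summed share of protein-coding counts was not lower in keto heavy, at 0.183% against 0.181% in chow heavy. The median and the share are scaled differently. Unadjusted p-values under 0.05 were found for 6 members, 1 higher and 5 lower in keto (8.11%; 8.17% of all genes).
Cytosolic ribosomal proteins had a median of -1.71 with 76 of 81 below 0, respiratory chain subunits -0.81 with 61 of 75 below 0, and mitochondrial translation factors -0.98 with 11 of 13 below 0. Ribosomal proteins with other symbols had 0.01, assembly factors -0.09, and transcription and RNA handling factors -0.09. The summed shares by header given above move with this comparison, since 1 of the 3 chow livers and no keto liver has a HISAT2 header. Without chow 3, a setting added after seeing the data for lists other than the members, cytosolic ribosomal proteins had -0.20 with 44 of 79 below 0, respiratory chain subunits -0.36 and translation factors -1.07. Without chow 3 the members' median was -0.26, and with the title wording as a batch it was -0.28.

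Mrps31, a small subunit protein specific to mitochondria, had the smallest p in the heavy pool. It had 0.157 and 2.32 CPM in keto heavy and 10.2, 5.65 and 7.87 in chow heavy, so that both keto livers lay below all chow livers. The log2 difference was -2.69 ± 0.93 (SE; edgeR, adjusted p = 0.512). In the light pool it had 1.72 and 0.707 CPM in keto livers and 3.13, 2.16 and 11.5 in chow livers, again without overlap, with -2.13 ± 0.88 (edgeR, adjusted p = 0.796). S209A had 6.58 CPM in heavy and 13.1 in light. In the light pool S209A and chow 3, the livers with HISAT2 headers, lay above all other livers. Members named in the heavy pool were picked for a small p, which favours keto and chow livers that do not overlap. The share of all genes tested without such overlap was not counted.
Mrpl32, which in mouse is matured by the mitochondrial m-AAA protease before it joins the ribosome, had 0.314 and 0 CPM (2 and 0 counts) in keto heavy and 7.45, 2.61 and 1.02 (30, 18 and 14 counts) in chow heavy. Its difference was -4.30 ± 1.48 (edgeR, adjusted p = 0.512). In the light pool Mrpl32 had 0.953 and 0 CPM in keto livers and 2.61, 0.575 and 1.87 in chow livers, which overlap. Mrpl35, of the large subunit, had 1.26 and 0.386 CPM in keto heavy and 6.46, 2.90 and 5.03 in chow heavy, with -2.49 ± 0.92 (edgeR, adjusted p = 0.521). In the light pool Mrpl35 had 0.191 and 6.36 CPM in keto livers and 0.348, 1.58 and 3.04 in chow livers, which overlap.
Mrpl38 had -1.42 ± 0.63 in the heavy pool, from the values given above. Mrps2, of the small subunit, was the member higher in keto heavy, with 6.60 and 6.57 CPM against 1.24, 2.61 and 2.33 in chow heavy, and its difference was 1.64 ± 0.72 (edgeR, adjusted p = 0.590). Mrpl10, which anchors the stalk, had 1.17 ± 1.03, Mrpl46 0.83 ± 0.85 and Mrpl28 0.53 ± 0.55.

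**Figure D4:**
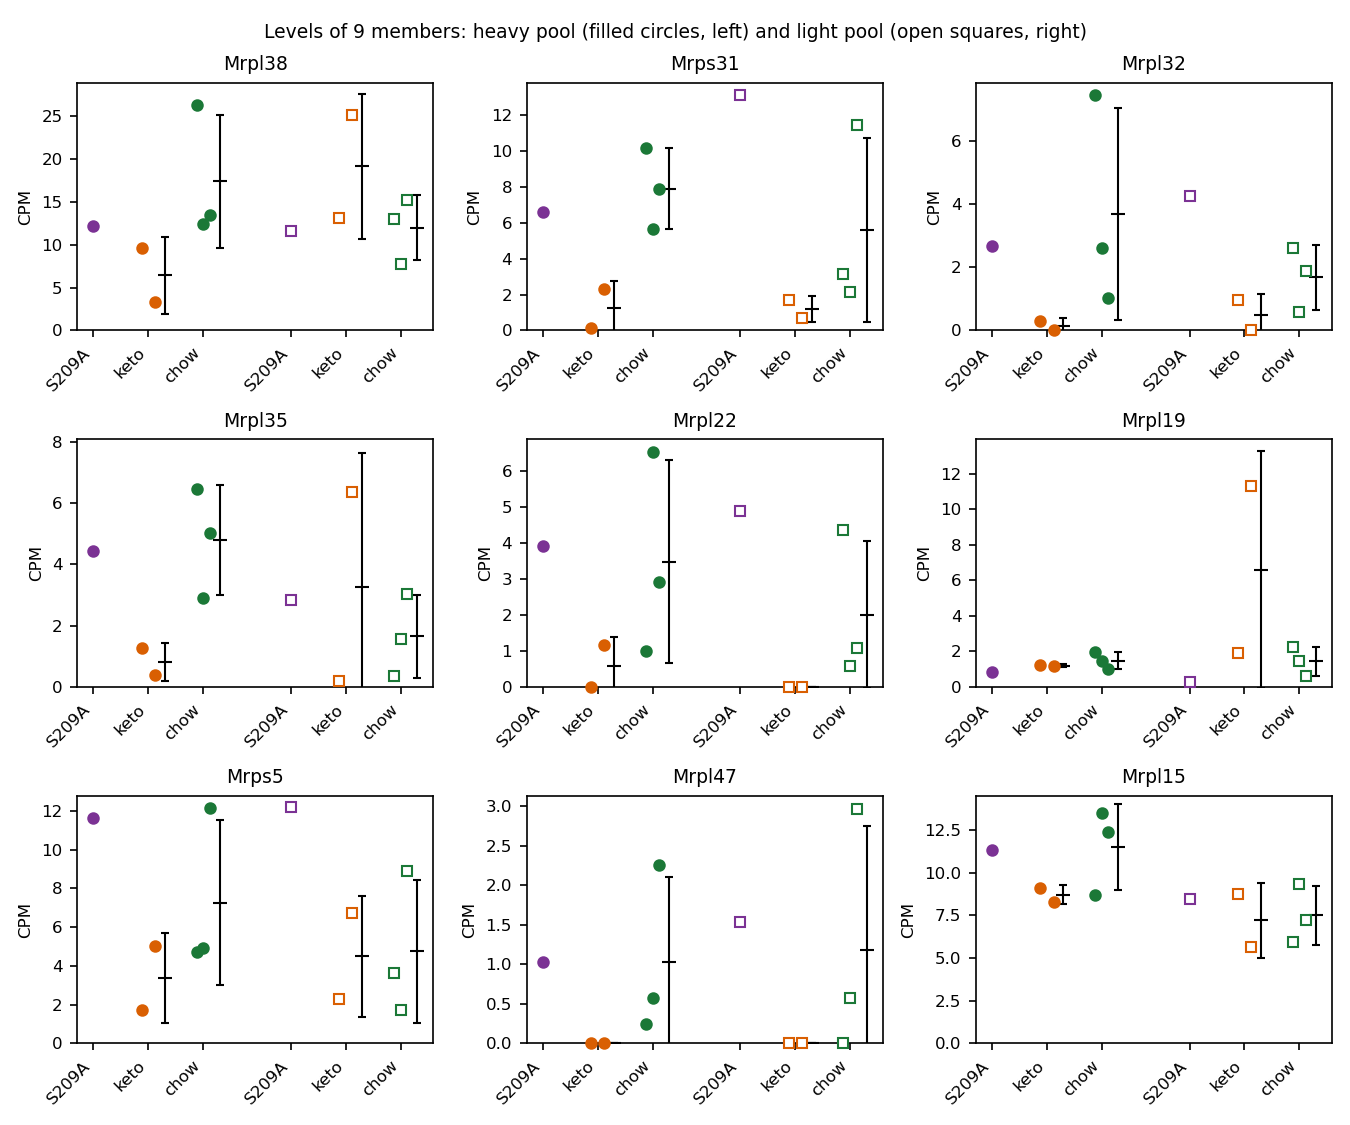
CPM of 9 members in each library, heavy pool (filled circles, left) and light pool (open squares, right), by group, with the group mean and SD in black beside the points for keto (n = 2) and chow (n = 3); S209A is 1 animal. Mrps31, Mrpl32, Mrpl35 and Mrpl38, picked for a small p in the heavy pool, are lower in both keto heavy libraries than in the 3 chow heavy libraries. Mrps5 and Mrpl47 are highest in S209A and 1 chow liver (chow 3).

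In the light pool edgeR likewise called 0 of 74 members and 0% of all 10551 genes, and DESeq2 and limma-voom called 0 genes. The members' median log2 keto over chow was -0.05, against -0.13 over all genes, with 39 of 74 below 0, and its sign turned with the keto liver left out (0.24 without keto 1, -0.32 without keto 2) and without chow 3 (0.11). Unadjusted p-values under 0.05 were found for 7 members, 1 higher and 6 lower in keto (9.46%; 6.07% of all genes). Cytosolic ribosomal proteins had a median of -1.19, respiratory chain subunits -0.21 and translation factors -0.83, and without chow 3 they had -0.08, 0.21 and -0.82.
Mrpl22, a large subunit protein that lines the exit tunnel, had 0 and 0 counts in keto light and 25, 4 and 14 in chow light. Against a floor of 3 counts over both keto libraries, its mean was at least 5.40-fold lower in keto light than the 2.00 CPM of chow light (edgeR, adjusted p = 0.796). Without chow 1, the highest of the chow livers here and left out after seeing the data, the bound was 2.24-fold. In the heavy pool it had 0 and 6 counts in keto livers and 4, 45 and 40 in chow livers, which overlap.
Mrpl44 had 0.381 and 0.707 CPM in keto light and 4.52, 1.87 and 3.12 in chow light, with -2.58 ± 0.91. Mrps22, a mitochondrion-specific small subunit protein, had 0.381 and 1.41 CPM in keto light and 2.78, 2.87 and 5.38 in chow light, with -2.17 ± 0.85. Mrpl52 had -2.62 ± 1.05. The keto and chow livers did not overlap for any of these 3, and none passed (edgeR, adjusted p = 0.796 each). The members named in this pool were picked for a small p, which favours such separation. How many of all genes tested did not overlap was not counted.
The member with an unadjusted p under 0.05 on the higher side was Mrpl19, of the large subunit, with 1.91 and 11.3 CPM in keto light and 2.26, 1.44 and 0.623 in chow light. Its value of 2.17 ± 0.90 rests on the 32 counts of keto 2, since keto 1 lay within the chow range. Mrpl18, of the central protuberance, had 11.1 and 18.4 CPM in keto light against 7.31, 6.61 and 7.25 in chow light, with 1.04 ± 0.48 (edgeR, adjusted p = 0.796) and no overlap. But its span overlaps Tcp1, and spans of other named members, Mrpl14, Mrpl19, Mrpl44 and Mrps2 among them, also overlap a protein-coding gene. Mrps28 had 1.36 ± 0.70 and Mrpl57 1.06 ± 0.66. Mrpl48 and Mrpl47 had 0 counts in both keto light libraries, and their chow light means were at least 3.17-fold higher. Chow 3 gave 39 of 42 and 38 of 42 of these chow counts. In chow 1 and 2 light, Mrpl48 had 2 and 1 counts and Mrpl47 had 0 and 4, so the bound rests on chow 3.

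The members named by role had these log2 differences, keto over chow, of which none passed. Mrps30 had 0.04 ± 0.67 in the heavy pool and 0.07 ± 0.59 in the light pool, and Mrps18a 0.09 ± 0.68 and 0.08 ± 0.55. Mrpl12 had -0.11 ± 0.67 in heavy and -1.35 ± 0.70 in light, where its counts were 13 and 3 in keto livers and 23, 38 and 61 in chow livers. Mrps34 had -1.34 ± 0.67 in heavy and -0.30 ± 0.58 in light. Mrpl3 had 0.74 ± 1.24 and 0.71 ± 0.77, Mrps35 0.56 ± 0.75 and -0.38 ± 0.64, and Mrpl41 -0.62 ± 1.07 and 0.29 ± 0.82. Mrpl58 had -0.56 ± 0.90 in heavy, and in light it had 3.43 and 0.353 CPM in keto livers and 0.522, 0.862 and 1.56 in chow livers, which overlap. Mrps18c had at most 5 counts in each library other than those of S209A and chow 3, and Mrps18b was not tested.

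S209A is 1 animal, so its differences have no replicate check and no test. A member was counted where it differed from the chow mean by more than 2-fold and lay outside the 3 chow libraries. In the heavy pool 10 of 74 members were counted above chow (13.5%; 11% of all genes) and 3 below (4.05%; 9.7% of all genes), and the median log2 S209A over chow was -0.04, against -0.07 over all genes. In the light pool 27 were counted above (36.5%; 15.1% of all genes) and 3 below (4.05%; 20.5% of all genes), and the median was 0.72, against -0.16 over all genes.
With protein-coding genes alone for scaling, an alternative chosen after seeing the data, the light median was 0.67. Against chow 3 alone, whose header names the same aligner, it was 0.44. As a share of protein-coding counts the members lay within the chow range in S209A light, as given above. In the same light libraries 58 of 81 cytosolic ribosomal protein genes and 46 of 75 respiratory chain genes were counted above chow, with medians of 1.60 and 1.16, and, in a setting added after seeing the data, of 0.72 and 0.71 against chow 3 alone.

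The S209A values that the naming rule picked were these. In the heavy pool Mrpl55 had 5.04 CPM in S209A and 0.745, 2.90 and 2.77 in chow livers (log2 1.20), Mrpl18 11.7 CPM against 3.97, 2.46 and 10.1 (1.06), Mrpl24 9.77 CPM against 7.20, 3.48 and 4.37 (0.97) and Mrps24 8.64 CPM against 2.23, 6.81 and 5.54 (0.81). S209A was above each chow liver for all 4, and Mrpl24 and Mrps24 stayed under 2-fold. Mrps12 had 1.54 CPM in S209A heavy against 4.97, 3.77 and 5.61 in chow heavy, below each of them (log2 -1.62). Mrps25, Mrps22 and Mrpl20 had -1.32, -1.02 and -1.02, all within the chow range.
In the light pool Mrps28 had 5.14 CPM in S209A against 0.870, 2.01 and 2.49 in chow livers (1.53), and Mrpl55 5.91 CPM against 3.48, 0.862 and 2.18 (1.49). Mrpl52 and Mrps5 had 1.38 each, and Mrpl58 had 2.30. Mrps2 had 0.771 CPM in S209A light against 1.04, 4.17 and 2.65 in chow light, below each of them (-1.70). Mrpl50, Mrpl28 and Mrpl54 had -0.69, -0.53 and -0.34.
Mrps12 therefore had heavy and light differences of opposite sign, -1.62 and 1.14, and 15 counts in heavy against 49 in light in this animal. 

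As a description, the summed CPM of the members over the 12 libraries was most like that of Fcna (Pearson r = 0.937), Naa10 (0.930), Cox6b1 (0.914), Fn1 (0.908) and Pdap1 (0.902) among 5248 genes. Cox6b1 encodes a subunit of cytochrome c oxidase, and Fn1 encodes fibronectin. The pools of 1 liver are not independent, and the libraries share depth and alignment differences.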

How the data were processed

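RNA of heavy and light gradient pools from 6 livers was sequenced with a stranded total RNA kit for low inputs, per the labels' protocols. The authors deposited 1 table of raw counts per library, indexed by Entrez gene ID. The submitters' processing notes list Trimmomatic, HISAT2, StringTie and mm10 without versions, while the file headers name Bowtie2 or HISAT2 or no aligner. The counter, its strand setting and its treatment of multiply aligned reads are not stated in the sources at hand. No column was left unused (0).

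IDs were named through RefSeq (GRCm38.p6, 25275 of 27179). Members and lists were chosen with earlier results of these data known. The rule for named genes took members by size or p within a comparison, 12 by name, and any that passed; members named outside it are said to be. edgeR 4.0.16 (R 4.3.3) kept 10555 genes at a minimum of 10 counts (filterByExpr), scaled by TMM and fitted quasi-likelihood models, two-sided, with Benjamini-Hochberg adjustment over all genes and a threshold of 0.05. Heavy over light used 12 libraries with the animal as a block; the comparisons of keto and of S209A with chow were made within a pool. CPM uses TMM-scaled library sizes. A standard error is the size of the log2 difference divided by the root of the F statistic. Animals are the replicates. The heavy and light pool of a liver are paired by their labels, and their deviations from the chow means correlated at 0.307, 0.305 and 0.463. Both pools of a chow liver share the aligner of their headers, so these values cannot tell animal from processing. In the keto livers, where 2 animals leave 1 deviation, the correlation was 0.0616. Other scalings, filters, tools (DESeq2 1.42.0, limma-voom in limma 3.58.1), blocks and left-out livers were tried. The fits were tested on simulated data with large changes set in genes of higher counts and no differences between animals. That test does not bear on smaller changes or on members with few counts. Transcript lengths and protein sequences were not used here, so no level is compared between genes, and the planned comparison with protein length was not run.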

Additional observations from a re-analysis of the deposited data

Results flagged for a closer look

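Among the 74 tested members, 5 (6.76%) had heavy over light of one sign in each chow liver and of the other sign in each keto liver, as did 7.30% of all genes tested. Mrpl14 differed by -2.35 (keto minus chow, log2), Mrps12 by -1.91, Mrps34 by -0.99 and Mrps5 by -1.15, with heavy below light in both keto livers and above it in all 3 chow livers. Mrps18c differed by 3.01 ± 3.30 (SE) the other way, a fitted value on 0 to 5 counts in each library of chow 1, chow 2 and the keto livers. The difference itself was tested with edgeR and passed for none of the 5 (adjusted p = 0.633 for Mrpl14, the lowest).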

How the results depend on the processing

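The count of members called stayed at 0 in all 6 tested comparisons under every other scaling, filter, tool and block and with any liver left out, except for the diet difference without chow 3, where Mrpl38 passed (0 to 1 over the left-out livers). Keeping genes at a mean of at least 50 counts left 6 members, whose medians were 0.37 (chow heavy over light), -0.55 (keto heavy over light), -0.87 (diet difference) and -0.80 (keto over chow, heavy). With the title wording as a batch the last was -0.28. Leaving out a liver gave medians of -0.54 to -0.26 for keto over chow in the heavy pool and -0.32 to 0.24 in the light pool, and diet differences of -0.32 to 5.05 for Mrpl51 and -0.83 to 5.69 for Mrpl48, both negative without keto 1. S209A light over chow 3 alone had a median of 0.44. As a share of all counts the highest library stood 8.97-fold above the lowest. Title numbers paired across diets as a replicate block gave medians of -0.32 (heavy) and 0.08 (light), with 83 and 5 genes called and 0 members; same-numbered livers correlated at -0.07 to 0.05, so they share only a number. Without the animal as a block, 0 members passed. Over all settings the genes called ran from 0 to 15 (3 in the edgeR fit reported) for heavy over light in 6 livers, 0 to 407 (24) in chow, 0 to 33 (19) in keto, 0 to 214 (20) for the diet difference, and 0 to 126 (0) and 0 to 39 (0) for keto over chow in heavy and light. The cause of these shifts was not tested. Depth limits every member: the median standard error was 0.59 to 1.43 log2 units.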
